A study of Mus musculus with 16 samples.

Results

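The knockout effect of Slc25a47 in mouse liver was compared between fed and fasted animals, as the difference (fasted KO minus fasted WT) minus (fed KO minus fed WT) for each gene. All 16 libraries of the series enter this comparison, with 4 libraries in each of 4 groups, and 13905 of 53714 genes had enough reads to be tested. The livers came from male mice aged 9 weeks of the strain C57BL/6 Slc25a47tm1c(EUCOMM)Hmgu, which by its name carries the conditional Slc25a47 allele in all groups. Knockout (KO) mice were Slc25a47hep-/- and control (WT) mice Slc25a47hep+/+, and mice of each genotype were either on chow diet (fed) or fasted overnight (fasted). The transgene that drives Cre in hepatocytes is not given in the sources used here. RNA was taken from a piece of frozen liver that holds all cell types of the organ, so a transcript that is lower can reflect fewer cells of a type or less RNA per cell, and these cannot be told apart. Labels number the libraries of a group without naming animals, so p-values measure the spread between these libraries.

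Slc25a47 encodes a mitochondrial carrier protein made mainly in hepatocytes. During a fast, the liver shifts from making fat and storing glucose to oxidizing fatty acids and releasing ketone bodies and glucose. The nuclear receptor PPARα switches on genes of fatty acid oxidation when fatty acids arrive from adipose tissue, while lipogenic genes depend on insulin and fall. A separate programme, the integrated stress response, acts through the factor ATF4, which raises genes of amino acid supply, tRNA charging and secreted stress signals when mitochondria or the endoplasmic reticulum are disturbed.

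A gene is described as called when its adjusted p from edgeR's quasi-likelihood test was below 0.05, over all genes tested. Levels are CPM, counts scaled to a common library total with TMM, a correction for library composition. Effects are log2 differences ± standard error, and a positive interaction means that the knockout effect was higher in fasted than in fed liver. Slc25a47 itself, on chromosome 12 from 108836046 to 108856815 on the forward strand of GRCm38, stood at 461, 622, 628 and 836 CPM in fed WT against 81.8, 123, 153 and 146 CPM in fed KO libraries. In the fasted groups it was 914, 1139, 889.5 and 855 CPM in WT and 331, 315, 237 and 163 CPM in KO. The genotypes did not overlap in either state, and the transcript was not at 0 in any KO library. Its knockout effect was -2.34 ± 0.25 (adjusted p = 1.32e-05) fed and -1.86 ± 0.25 (adjusted p = 8.06e-05) fasted, and the interaction of 0.48 ± 0.34 (adjusted p = 0.529) was not called.

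Reads assigned to genes were 19.6 M to 27.4 M per library. The 18 hepatocyte markers on the list were all tested and summed to 118000 to 174600 CPM, as befits the labelled tissue. For the interaction 0 of them were called by edgeR, with 4 at an unadjusted p under 0.05, 2 called by DESeq2 and 1 by limma voom. Transcripts of pancreatic acinar cells, the digestive enzyme cells of a neighbouring organ, summed to 25.3 to 32.8 CPM in fed WT, 9.17 to 27.8 in fed KO, 8.76 to 2093 in fasted WT and 5.68 to 92.5 in fasted KO. The high values of fasted WT were 2093 CPM in library 2 and 584.6 CPM in library 4, and the highest fasted KO value was that of library 1. Cela1 made up most of the fed WT sum, with 487 to 795 reads per library, and no other acinar gene had more than 11 there. Fed KO 3 held 93 reads of Pnlip and 38 of Prss2. At 0 reads in fed WT were 20 of the 29 acinar genes in the file, among them Prss2, Pnlip and Cpa1. Of these genes 20 had enough reads to be tested, all with an estimate below 0, and 0 were called by edgeR, with 2 at an unadjusted p under 0.05, 8 called by DESeq2 and 0 by limma voom. Genes such as Pnlip, with 4191, 88 and 1156 reads in fasted WT 2, 3 and 4 and 0 in fed WT, passed the read filter through fasted WT. The shared sign was thus largely set by that filter and is no result. Because of the high acinar values there, the results were also fitted without fasted WT 2 and 4. Fasted WT 3, at 47.9 CPM with 88 reads of Pnlip, stayed in that fit, as did fed KO 3 and fasted KO 1. Reads that aligned to several places made up 40.4% to 45.8% of all counts in WT and 32.0% to 39.3% in KO libraries, a difference between genotypes in both feeding states. Its part in the results was not tested.

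The knockout effect differed between the feeding states for 237 genes, which is 1.7% of those tested. It was higher in fasted liver for 149 genes (1.07%) and lower for 88 (0.633%), so that 62.9% of calls were positive. That split was 46.6% positive when libraries were scaled by their totals alone and 48.2% with a filter of 1 CPM in 4 libraries. Either genotype effect alone was called far more widely, at 30.9% of genes in fed and 28.3% in fasted liver. At an unadjusted p under 0.05, 2371 genes showed an interaction. The estimate was at least 1 in size, a 2-fold difference between the effects, for 51 of the positive and 27 of the negative genes. Positive estimates ran from 0.38 to 5.44 and negative ones from -7.73 to -0.40. Over all genes the median was 0.012. Counts of called members in the gene lists below are to be read against the shares of 1.07% and 0.633%.

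**Figure D1:**
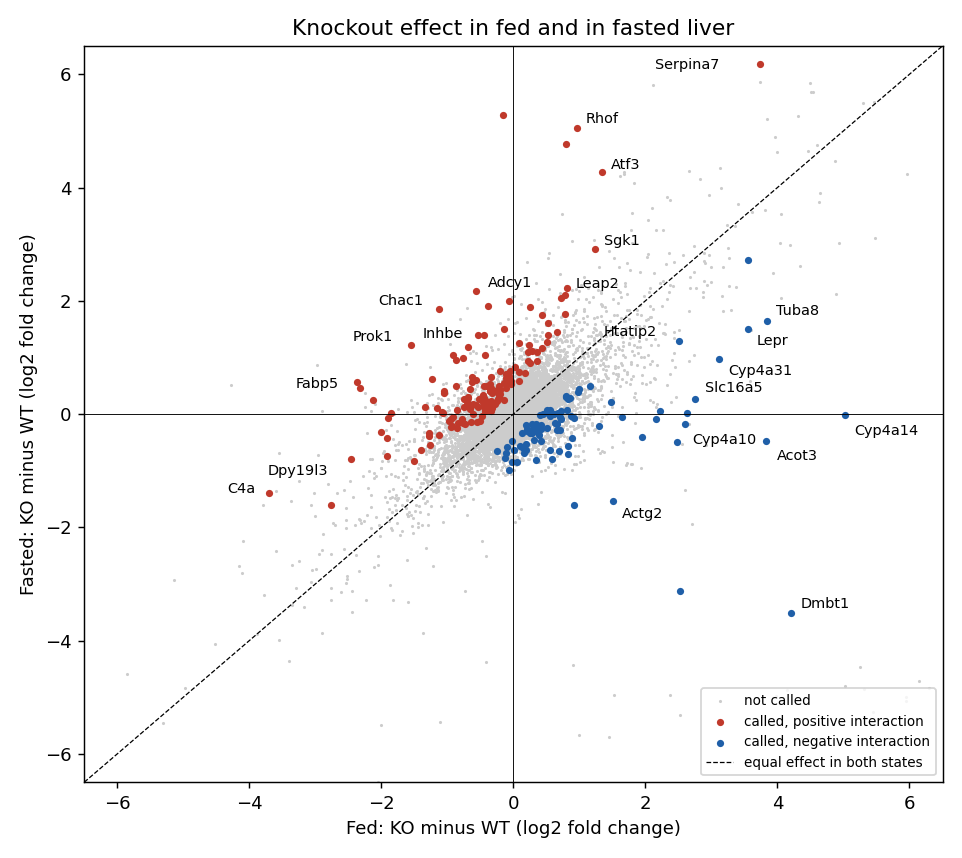
Each point is a tested gene, with its knockout effect (log2 KO over WT) in fed liver on the x axis and in fasted liver on the y axis. Red points (149) and blue points (88) are genes called for a positive or negative interaction, the dashed line marks an equal effect in both states, and 16 genes that were not called lie outside the axes. Cyp4a14 sits near 0 on the fasted axis and at 5.02 on the fed axis, while Rhof sits at 5.05 on the fasted axis.

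The plot of knockout effects in both states separates the called genes by pattern. Of the 149 positive genes, 66 had a knockout effect called in fed liver alone, 43 in fasted liver alone and 18 in both states with opposite signs. A further 14 were called in both with the same sign and a larger effect when fasted, and 8 with a larger effect when fed. Of the 88 negative genes, 37 were called in fed liver alone, 21 in fasted liver alone, 17 in both with opposite signs, 12 in both with a larger fed effect and 1, Maged1, in both with a larger fasted effect. Most negative genes were higher in fed KO than in fed WT, with 66 of 88 called up and 1 called down, against 14% up and 16.9% down over all genes. Among positive genes 92 of 149 were called lower in fed KO. In fasted liver 75 of the positive genes were called higher in KO, against 13.8% of all genes. These counts use the libraries that also chose the genes, so they describe the pattern and are no further test.

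The response to fasting showed the same split from its other side. Fasting raised 56 of the 88 negative genes in WT liver (16.2% of all genes rose) and 20 of them in KO liver, where 41 fell (20.3% of all genes fell there). It lowered 66 of the 149 positive genes in WT liver (18.3% of all genes fell) and raised 95 of them in KO liver (21.1% of all genes rose). Both genotype effects and both fasting responses share libraries pairwise, and all are terms of the interaction.

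Without fasted WT 2 and 4, all 237 genes kept their sign and none moved by more than 1.5 times. The median went from 0.80 to 0.81 for positive and from -0.75 to -0.76 for negative genes. Fewer genes were called, 72 of 14345 (0.502%), with 39 positive and 33 negative, and 58 of them were among the 237. That fit has 2 libraries left in fasted WT. The other 14 calls, read from a list made after the values were seen, include Cebpg, a partner of ATF4, at 0.69 (adjusted p = 0.0484, against 0.0510 with 16 libraries). They also include Mrpl38 of the mitochondrial ribosome at 0.51 (adjusted p = 0.0423, against 0.997 with 16 libraries). Duox2, at -7.12, was among them and was not tested with 16 libraries. Leaving out 1 library at a time also changed the count by more than 1.5 times in 10 of 16 cases: 141 without fed WT 2, 149 without fed WT 3, 523 without fed KO 2, 95 without fed KO 3 and 116 without fed KO 4. It was 118 without fasted WT 1, 91 without fasted WT 2, 155 without fasted KO 2, 87 without fasted KO 3 and 126 without fasted KO 4. All 237 genes kept their sign in each of these fits. The call held in all 16 fits for 67 genes, 35 positive and 32 negative. Under every setting tried apart from a stricter p threshold it held for 42 genes, 22 positive and 20 negative. Of the 82 called genes named in the text, 36 kept the call whichever single library was left out.

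**Figure D2:**
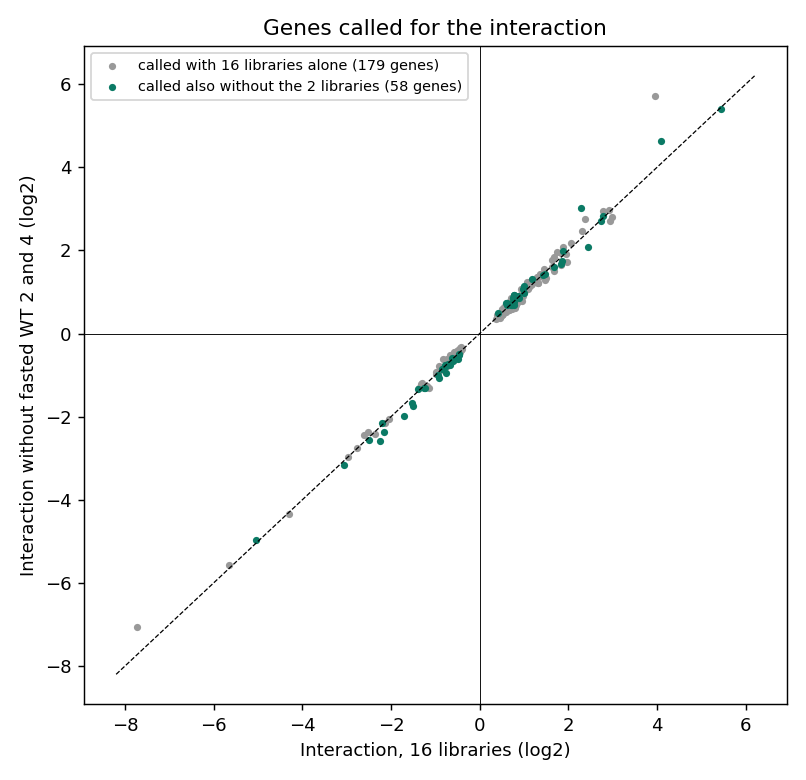
Interaction estimates (log2) of the 237 called genes with all 16 libraries (x axis) and without fasted WT 2 and 4 (y axis), with the dashed line marking equal values. Points in green (58 genes) were called in both fits and points in grey (179 genes) with 16 libraries alone, and all lie on the same side of 0 in both fits.

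Negative genes included textbook targets of PPARα. In the Cyp4a family, whose enzymes hydroxylate the end of fatty acid chains, 3 of 6 tested members were called. All 3 were raised in fed KO liver before any fast. The family was listed after the values were seen, and 0.633% of all genes were called negative. Cyp4a14, on chromosome 4 from 115486200 to 115496142 on the reverse strand, stood at 36.7, 5.52, 59.95 and 65.5 CPM in fed WT against 691, 1322, 1429 and 2006 CPM in fed KO. After the fast it was 9154, 11787, 11913 and 11626 CPM in WT and 11777, 10249, 11228 and 10554 CPM in KO. All fed KO libraries lay above all fed WT libraries, while the fasted genotypes overlapped. The knockout effect was 5.02 ± 0.61 (adjusted p = 7.07e-05) fed and -0.022 ± 0.51 (adjusted p = 0.981) fasted, so the interaction was -5.05 ± 0.77 (adjusted p = 0.0116), and -4.97 (adjusted p = 0.0444) without fasted WT 2 and 4. Cyp4a14 kept its call whichever library was left out.

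Cyp4a10 followed the same course at a higher fed WT level of 105, 31.7, 179 and 133 CPM. Its fed KO values were 417, 749, 708 and 831 CPM, all above those of fed WT. Fasted WT livers held 7467, 7913, 8201 and 8214 CPM and fasted KO livers 7544, 6775, 6898 and 6837 CPM, with overlap. The interaction was -2.77 ± 0.53 (adjusted p = 0.0244). Cyp4a31 differed in that the fasted genotypes did not overlap either, with means of 227 ± 38.9 CPM (SD, n = 4) in WT and 446 ± 73.3 in KO, and its interaction was -2.14 ± 0.46 (adjusted p = 0.0394). The other tested members, Cyp4a32, Cyp4a12a and Cyp4a12b, had estimates of -0.22, 0.44 and 0.49 and were not called. These genes lie in a cluster, and some members of the family are close copies of one another. Reads that aligned to several places stand in a summary line apart from the gene counts, so the values of each copy rest on the other reads and are uncertain as levels. The calls of Cyp4a10 and Cyp4a31 were lost without fasted WT 2 and 4, with estimates of -2.75 (adjusted p = 0.0779) and -2.15 (adjusted p = 0.105). Leaving out fed KO 3, fed KO 4, fasted WT 2, fasted KO 3 or fasted KO 4 alone also ended the call of Cyp4a10, and 11 of the 16 libraries alone ended that of Cyp4a31.

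Acot3, an acyl-CoA thioesterase that frees fatty acids from coenzyme A, rose from 0.507, 0.2, 1.44 and 0.784 CPM in fed WT to 4.81, 6.66, 7.91 and 22.2 CPM in fed KO. Fasted levels were 39.6, 23.3, 21.8 and 34.6 CPM in WT and 33.1, 27.3, 15 and 11 CPM in KO. The fed genotypes did not overlap and the fasted genotypes did. Its interaction was -4.3 ± 0.86 (adjusted p = 0.032), and -4.33 (adjusted p = 0.0779) without fasted WT 2 and 4. Ehhadh, the bifunctional enzyme of peroxisomal fatty acid oxidation, averaged 238 ± 36 CPM in fed WT, 439 ± 153 in fed KO, 5268 ± 993 in fasted WT and 3909 ± 308 in fasted KO (SD, n = 4 each). The genotypes did not overlap when fed, and the interaction was -1.31 ± 0.29 (adjusted p = 0.0344), or -1.19 (adjusted p = 0.116) without fasted WT 2 and 4. Slc27a1, a fatty acid transport protein, had an uncalled knockout effect of 0.051 when fed and was lower in all fasted KO libraries than in all fasted WT libraries. Its interaction was -0.90 ± 0.17 (adjusted p = 0.0142), kept in all 16 single omissions, and -0.87 (adjusted p = 0.0633) without fasted WT 2 and 4. The call of Acot3 was lost in 8 and that of Ehhadh in 11 of 16 single omissions. Acot3 was the single call among 11 tested acyl-CoA thioesterases, listed after the values were seen, with 9 of them below 0.

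The list of 35 PPARα targets and fatty acid oxidation genes was tested in full. It held 3 negative calls (Cyp4a14, Cyp4a10 and Ehhadh), against 0.633% of all genes, and 1 positive call (Fabp1), against 1.07%. Its median interaction was -0.26 and 26 of 35 estimates lay below 0, against 6679 of 13905 over all genes. The mitochondrial β-oxidation enzymes Acadm, Acadl, Hadha and Cpt2 were at -0.28, -0.22, -0.33 and -0.13 and were not called. Cpt1a, the entry step of fatty acids into mitochondria, was at 0.26, and Fgf21, a fasting hormone that is also an ATF4 target, at -0.053, neither of them called. Fabp1, the abundant fatty acid binding protein of liver, was lower in fed KO at 2283 ± 285 CPM than in fed WT at 4110 ± 185 CPM (SD, n = 4). Its knockout effect was -0.85 fed and -0.24 fasted, the latter not called, and its interaction 0.61 ± 0.14 (adjusted p = 0.0337), or 0.62 (adjusted p = 0.0818) without fasted WT 2 and 4.

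Slc16a5, a monocarboxylate transporter, and Lepr, the leptin receptor, had the same direction. Slc16a5 stood at 2.38, 3.56, 1.21 and 1.27 CPM in fed WT against 10.03, 14.7, 12.3 and 21.3 CPM in fed KO, with no overlap. After the fast it reached 48.9, 35.8, 35.7 and 40.6 CPM in WT and 62.5, 49.9, 37.1 and 44.4 CPM in KO, where the genotypes overlapped. The interaction was -2.49 ± 0.42 (adjusted p = 0.0134), and -2.56 (adjusted p = 0.0492) without fasted WT 2 and 4. Lepr rose with the knockout in both states, by 3.55 ± 0.34 (adjusted p = 7.8e-06) fed and 1.5 ± 0.30 (adjusted p = 0.00219) fasted, from 6.09 ± 1.79 CPM in fed WT (SD, n = 4). Its interaction of -2.05 ± 0.44 (adjusted p = 0.0381) was -2.07 (adjusted p = 0.0779) without fasted WT 2 and 4 and lost its call in 12 of the 16 single omissions.

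**Figure D3:**
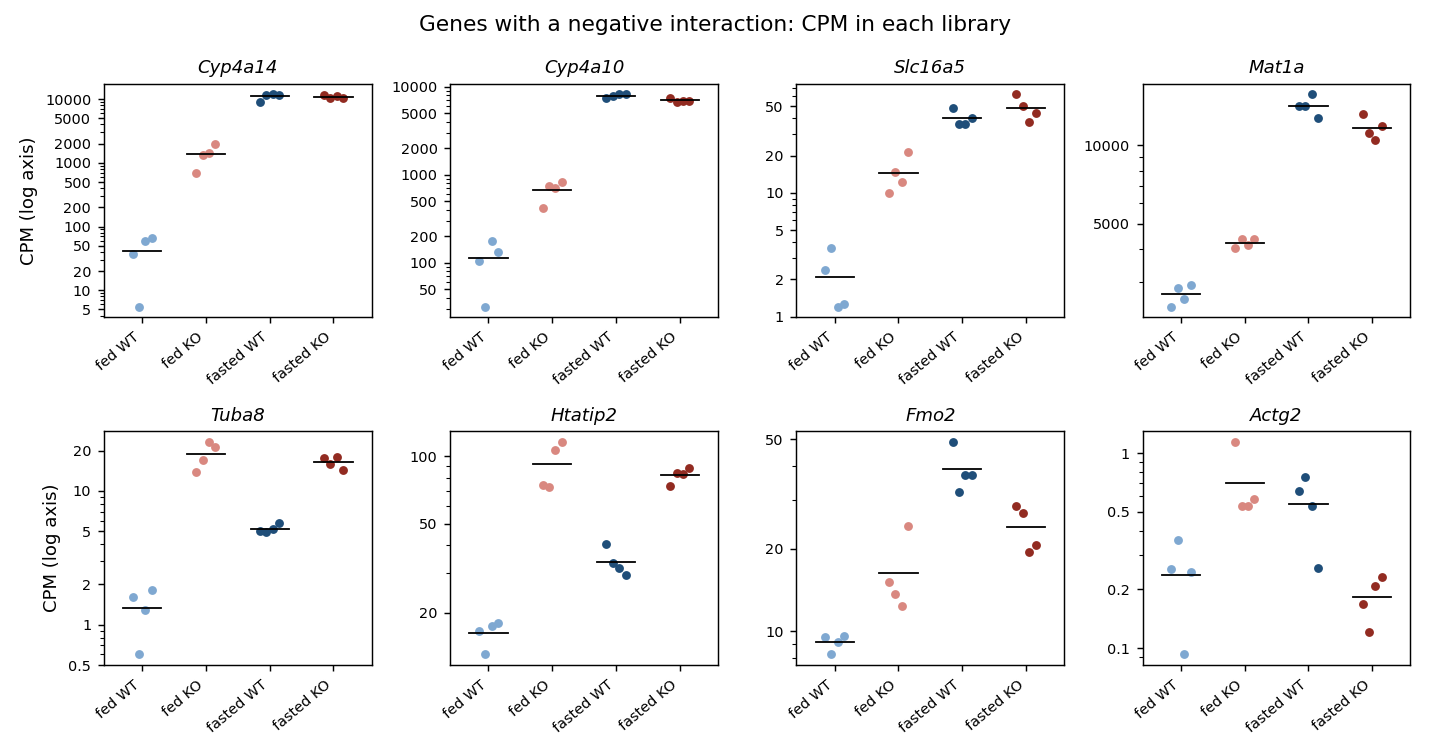
CPM of 8 genes with a negative interaction in each library on log axes, with 4 points per group and a bar at the group mean. In Cyp4a14 and Cyp4a10 the fed KO points lie between fed WT and the fasted groups, and in Tuba8 and Htatip2 both KO groups lie above the fasted WT points, which lie above fed WT.

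Mat1a, which makes S-adenosylmethionine in liver, was higher in fed KO and lower in fasted KO than in the matched WT livers. It stood at 2409, 2843, 2568 and 2921 CPM in fed WT against 4038, 4365, 4160 and 4368 CPM in fed KO. Fasted WT livers held 14093, 14126, 15660 and 12704 CPM and fasted KO livers 13181, 11131, 10445 and 11851 CPM. Fed KO libraries were all above fed WT, and the fasted genotypes overlapped. The knockout effect was 0.66 ± 0.089 (adjusted p = 2.66e-05) fed and -0.28 ± 0.089 (adjusted p = 0.024) fasted, and the interaction was -0.94 ± 0.13 (adjusted p = 0.00239), or -1.01 (adjusted p = 0.0113) without fasted WT 2 and 4.

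In Tuba8 and Htatip2 the knockout raised the level in both states, while the rise with fasting was called in WT and not in KO. Tuba8, an alpha tubulin, stood at 1.62, 0.6, 1.3 and 1.81 CPM in fed WT, then 13.8, 17, 23.1 and 21.2 CPM in fed KO, 4.99, 4.95, 5.18 and 5.79 CPM in fasted WT and 17.6, 15.8, 17.8 and 14.3 CPM in fasted KO. The genotypes did not overlap in either state. Fasting changed it by 1.99 ± 0.24 (adjusted p = 4.01e-06) in WT and by -0.20 ± 0.18 (adjusted p = 0.388) in KO, an interaction of -2.19 ± 0.29 (adjusted p = 0.00239). Htatip2, an oxidoreductase, had fed levels of 16.5, 13, 17.4 and 17.9 CPM in WT and 74.6, 73.1, 106 and 116 CPM in KO. Its fasted levels were 40.5, 33.2, 31.6 and 29.5 CPM in WT and 73.8, 83.7, 83 and 88.2 CPM in KO, again with no overlap between genotypes. The interaction was -1.22 ± 0.21 (adjusted p = 0.0114). Both genes kept their calls in all 16 single omissions and without fasted WT 2 and 4, at -2.15 (adjusted p = 0.0228) and -1.32 (adjusted p = 0.0344).

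Nqo1, a quinone reductase and textbook target of the antioxidant factor NRF2, was higher in fed KO (8.74 ± 2.08 CPM) than in fed WT (3.14 ± 0.543 CPM, SD, n = 4). In fasted liver the genotypes overlapped at 6.71 ± 0.375 CPM in WT and 7.82 ± 1.05 in KO, and the interaction was -1.26 ± 0.23 (adjusted p = 0.0116). Of 21 NRF2 targets and glutathione genes, all tested, 18 had estimates below 0 with a median of -0.33. Within this list, which does not hold every glutathione gene, Nqo1 was the single negative call. Its single positive call was G6pdx, the first enzyme of the pentose phosphate pathway, at 1.26 ± 0.24 (adjusted p = 0.0142). G6pdx was lower in fed KO than in fed WT, while the fasted genotypes overlapped, and its estimate was 1.32 (adjusted p = 0.0512) without fasted WT 2 and 4. Perp, a membrane protein induced by p53, rose by 0.61 ± 0.076 (adjusted p = 1.03e-05) in fed KO and had an effect of 0.0066 ± 0.076 (adjusted p = 0.961) after the fast, with an interaction of -0.60 ± 0.11 (adjusted p = 0.0114). Perp was the single call among 20 tested p53 targets, against 0.633% of all genes called negative. The list leaned the other way, with 15 estimates above 0 and a median of 0.17.

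Further genes were raised in fed KO and not by a called amount in fasted KO. Atp6v0d2, a subunit of the vacuolar proton pump, averaged 2.19 ± 0.499 CPM in fed WT and 9.81 ± 3.06 in fed KO (SD, n = 4), with an interaction of -2.24 ± 0.47 (adjusted p = 0.029). Scd2, a stearoyl-CoA desaturase, had -1.7 ± 0.36 (adjusted p = 0.0308). Wee1, the kinase that holds back entry into mitosis, had -1.51 ± 0.36 (adjusted p = 0.0407). Their estimates without fasted WT 2 and 4 were -2.6 (adjusted p = 0.0354), -1.98 (adjusted p = 0.0276) and -1.75 (adjusted p = 0.0423). Single omissions ended the call of Atp6v0d2 in 9 of 16 cases, of Scd2 in 10 and of Wee1 in 11. Tm6sf2, a protein of lipoprotein export, rose in fed KO to 41.1 ± 7.81 CPM from 22.4 ± 1.62 CPM, with an interaction of -0.91 ± 0.17 (adjusted p = 0.0134). Psmd11, a subunit of the proteasome, had -0.52 ± 0.12 (adjusted p = 0.0325). Psmd11 was the single call among 38 tested proteasome genes, of which 33 were below 0 and 25 were called lower in fasted KO, against 14.5% of all genes. Tm6sf2 and Psmd11 were not called without fasted WT 2 and 4, at -0.77 (adjusted p = 0.0755) and -0.48 (adjusted p = 0.105).

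Fmo2 and Fmo1, flavin monooxygenases that oxidize drugs and other small molecules, were lower in fasted KO than in fasted WT. Fmo2 stood at 9.54, 8.24, 9.18 and 9.61 CPM in fed WT against 15.1, 13.6, 12.4 and 24.1 CPM in fed KO. Fasted values were 48.8, 32.1, 37.1 and 37.2 CPM in WT and 28.7, 26.9, 19.5 and 20.6 CPM in KO. The genotypes did not overlap in either state, with KO above WT when fed and below it when fasted. Its knockout effects were 0.83 ± 0.20 (adjusted p = 0.00529) and -0.70 ± 0.19 (adjusted p = 0.0106), and the interaction was -1.53 ± 0.27 (adjusted p = 0.0136). Fmo1 had overlapping genotypes when fed and was lower in fasted KO at 202 ± 29.1 CPM than in fasted WT at 323 ± 16.6 CPM (SD, n = 4), an interaction of -0.84 ± 0.14 (adjusted p = 0.00763). Without fasted WT 2 and 4 the estimates were -1.67 (adjusted p = 0.0348) and -0.85 (adjusted p = 0.0348). Of the 4 flavin monooxygenase genes reported here that were tested, Fmo1 and Fmo2 were called, against 0.633% of all genes called negative. This list was made after the values were seen, and 3 estimates lay below 0 with a median of -0.87. Without those libraries Fmo4 was called as well, at -1.16.

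Cytochromes of the Cyp2c family, listed after their values were seen, held 3 negative calls among 13 tested, against 0.633% of all genes. Cyp2c39 rose from 0.81 ± 0.107 CPM in fed WT to 3.82 ± 1.61 in fed KO and overlapped between the fasted genotypes, with an interaction of -2.17 ± 0.40 (adjusted p = 0.0142). Cyp2c54 and Cyp2c37 differed in fasted liver instead. Cyp2c54 was 326, 256, 329.8 and 267 CPM in fasted WT and 159, 169, 153 and 115 CPM in fasted KO, with no overlap, while the fed genotypes overlapped. Its interaction was -0.92 ± 0.18 (adjusted p = 0.0142), and that of Cyp2c37 -0.76 ± 0.18 (adjusted p = 0.0404). All 3 were also called without fasted WT 2 and 4, although the call of Cyp2c37 was lost in 10 of 16 single omissions. The family members are close in sequence, and their counts leave out reads placed at more than one site, so levels are uncertain. In the wider list of 19 drug metabolism genes, 2 were called negative, against 0.633% of all genes, and 14 estimates were below 0.

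Enzymes that break down amino acids included Oat and Amt. Oat, ornithine aminotransferase of pericentral hepatocytes, was 1844, 1911, 1837 and 1678 CPM in fasted WT and 1112, 1165, 1061 and 1320 CPM in fasted KO, with no overlap. When fed, WT stood at 661 ± 76.8 CPM and KO at 756 ± 87.9 CPM, which overlapped, and the interaction was -0.84 ± 0.14 (adjusted p = 0.00763). Amt, of the glycine cleavage system, had a smaller interaction of -0.47 ± 0.092 (adjusted p = 0.0161). Those 2 were the only calls among 33 tested genes of amino acid breakdown and the urea cycle, against 0.633% of all genes called negative. The median of the list was -0.065 and 19 estimates lay below 0. Slc6a6, the taurine transporter, had -0.55 ± 0.13 (adjusted p = 0.0373), with KO above WT when fed and below it when fasted, and -0.58 (adjusted p = 0.0755) without fasted WT 2 and 4. It was the single call among 17 tested amino acid transporters, a separate list in which 12 estimates lay above 0 with a median of 0.18.

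Several chaperones of the endoplasmic reticulum were lower in fasted KO than in fasted WT. Calr, a calcium-binding chaperone, stood at 422, 581, 438 and 535 CPM in fasted WT and 256, 299, 260.0 and 289 CPM in fasted KO. In fed liver it was 971, 1020, 786 and 859 CPM in WT and 964, 913, 826 and 879 CPM in KO. Fasted WT 2 and 4 held the highest fasted values, all fasted WT libraries lay above fasted KO, and the fed genotypes overlapped. The interaction was -0.82 ± 0.15 (adjusted p = 0.0116) for Calr, -0.66 ± 0.13 (adjusted p = 0.0164) for Pdia3 and -0.75 ± 0.16 (adjusted p = 0.0244) for Pdia4, the last 2 being protein disulfide isomerases. Of the 23 chaperone genes, all tested, 21 had estimates below 0 with a median of -0.40, and 13 were called lower in fasted KO, against 14.5% of all genes. The listed acinar transcripts, highest in fasted WT 2 and 4, made up at most 0.196% of the reads assigned to genes in a library. That sum holds the listed genes alone, and the part of acinar RNA in this result was not tested. Without those libraries the median was -0.16 and 0 chaperones were called by edgeR, with 6 at an unadjusted p under 0.05 and estimates of -0.61 (adjusted p = 0.0656), -0.54 (adjusted p = 0.0821) and -0.62 (adjusted p = 0.11).

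Genes of actin and contractile filaments, listed after their values were seen, made a further group with a median of -0.60. Of 19 tested, 4 were called negative, against 0.633% of all genes. Actg2, an actin of smooth muscle, had 0.254, 0.36, 0.0927 and 0.245 CPM in fed WT against 1.14, 0.536, 0.537 and 0.582 CPM in fed KO, and 0.637, 0.753, 0.536 and 0.258 CPM in fasted WT and 0.168, 0.122, 0.209 and 0.233 CPM in fasted KO. These rest on 2 to 28 reads per library. KO was above WT when fed and below it when fasted, without overlap in either state, and the interaction was -3.06 ± 0.60 (adjusted p = 0.0154). Myl9, a myosin light chain, averaged 3.44 ± 0.557 CPM in WT and 6.12 ± 1.18 in KO when fed, and 2.38 ± 0.806 and 1.61 ± 0.172 CPM when fasted (SD, n = 4 each), with an interaction of -1.38 ± 0.30 (adjusted p = 0.0244). Acta2 had -1.33 ± 0.33 (adjusted p = 0.045) and Tpm1, a tropomyosin, -0.60 ± 0.14 (adjusted p = 0.0371). Stellate cells, the contractile mesenchymal cells of liver, are marked by Acta2 among others. The summed level of the 14 stellate markers was 449 to 527 CPM in fed WT, 622 to 708 in fed KO, 482 to 524 in fasted WT and 630 to 688 in fasted KO, Acta2 was their single call and their median interaction was -0.098. Tpm1 was higher in KO in both states and Myl9 overlapped between the fasted genotypes. The call of Acta2 was lost without fasted WT 2 and 4 at -1.2 (adjusted p = 0.113) and in 13 of 16 single omissions, and that of Myl9 without fed KO 4, fasted WT 2 or fasted KO 3. Tpm1 was not called without fasted WT 2 and 4, at -0.62 (adjusted p = 0.0733), nor in 9 of 16 single omissions.

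Iron and haem handling, also grouped after the values were seen, held 6 calls among 25 tested genes. All were negative, against 0.633% of all genes, while the median of the list was -0.043 against 0.012 for all genes. Tfrc, the transferrin receptor that takes up iron, was 13.6, 20.1, 14.2 and 17.7 CPM in fed WT against 18.2, 29, 23.5 and 25.7 CPM in fed KO. Fasted values were 36.9, 29.9, 38.9 and 36.6 CPM in WT and 30.8, 25, 17.8 and 18.5 CPM in KO. Although the groups overlapped in both states, the knockout effect was 0.55 ± 0.18 (adjusted p = 0.0324) fed and -0.63 ± 0.18 (adjusted p = 0.016) fasted, and the interaction -1.18 ± 0.26 (adjusted p = 0.0339). Slc48a1, a haem transporter, had -0.63 ± 0.11 (adjusted p = 0.00866) and kept its call in every single omission and without fasted WT 2 and 4. Ftl1, the light chain of the iron store ferritin, had -0.62 ± 0.14 (adjusted p = 0.0309). Hfe, a regulator of iron sensing, had -0.44 ± 0.11 (adjusted p = 0.0447), and Glrx5, which serves iron-sulphur cluster assembly, -0.41 ± 0.098 (adjusted p = 0.0394). The mitochondrial carrier Slc25a39, which imports glutathione, was the single call among 46 tested mitochondrial carriers at -0.56 ± 0.11 (adjusted p = 0.0164). Ferritin light chain reads that also align to near-identical copies are left out of its count, so its level is uncertain. All calls of this group but Slc48a1 were lost without fasted WT 2 and 4. Single omissions ended the calls of Tfrc, Ftl1, Hfe and Glrx5 in 8 to 11 of 16 cases, and none ended that of Slc25a39.

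Dmbt1, a glycoprotein of duct and gut epithelia, had the largest negative estimate of all called genes. It stood at 0.254, 1.64, 0.139 and 0.588 CPM in fed WT, then 26.2, 13.9, 8.33 and 2.91 CPM in fed KO, 52.3, 108, 4.46 and 14.3 CPM in fasted WT and 5.41, 2.03, 4.05 and 4.12 CPM in fasted KO. The values spread widely within groups, and the fasted genotypes overlapped. Its interaction was -7.73 ± 1.48 (adjusted p = 0.0278) and -7.06 (adjusted p = 0.0656) without fasted WT 2 and 4, the first of which holds its highest value. The call was also lost in 7 of the 16 single omissions. Markers of bile ducts summed to 65.2 to 74.2 CPM in fed WT, 76.6 to 84.8 in fed KO, 58.2 to 73.8 in fasted WT and 52.4 to 68.7 in fasted KO. Of the 9 tested, 8 had estimates below 0 and 0 were called by edgeR, with 1 at an unadjusted p under 0.05, 1 called by DESeq2 and 0 by limma voom. Their part in the result for Dmbt1 was not tested. Olfm4, a secreted glycoprotein of gut crypts and neutrophils, had 0 to 16 reads per library and an interaction of -5.65 ± 1.37 (adjusted p = 0.0443), lost in 12 of 16 single omissions and -5.57 (adjusted p = 0.0517) without fasted WT 2 and 4.

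On the positive side, Rhof and Prok1 kept their calls whichever library was left out. Rhof, a small GTPase that shapes actin, lies on chromosome 5 from 123103044 to 123132692 on the reverse strand. It had 0.609, 0.12, 0.278 and 0.245 CPM in fed WT, then 0.693, 0.613, 0.729 and 0.291 CPM in fed KO, 0.159, 0.269, 0.134 and 0.31 CPM in fasted WT and 7.26, 5.95, 6.39 and 9.52 CPM in fasted KO. The 4 fasted KO libraries hold 147 to 245 reads and stand apart from the other 12, which hold 3 to 19. The fasting response was 3.61 ± 0.27 (adjusted p = 1.22e-08) in KO and -0.48 ± 0.50 (adjusted p = 0.501) in WT, and the interaction 4.09 ± 0.59 (adjusted p = 0.00263), or 4.64 (adjusted p = 0.0194) without fasted WT 2 and 4. The locus also holds Tmem120b on the opposite strand, whose reads cannot be told apart there without a stated strand setting.

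Prok1, a secreted ligand of prokineticin receptors, had 4.92, 7.12, 6.86 and 7.31 CPM in fed WT against 2.2, 3.06, 2.27 and 1.31 CPM in fed KO. After the fast it had 0.637, 0.592, 0.536 and 0.672 CPM in WT and 0.714, 1.82, 1.5 and 1.63 CPM in KO. KO lay below WT when fed and above it when fasted, without overlap. Prok1 fell with the fast in both genotypes, with a log2 change of -3.42 ± 0.28 (adjusted p = 2.68e-08) in WT and -0.65 ± 0.25 (adjusted p = 0.047) in KO, and the interaction was 2.77 ± 0.38 (adjusted p = 0.00239), or 2.83 (adjusted p = 0.0228) without fasted WT 2 and 4.

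**Figure D4:**
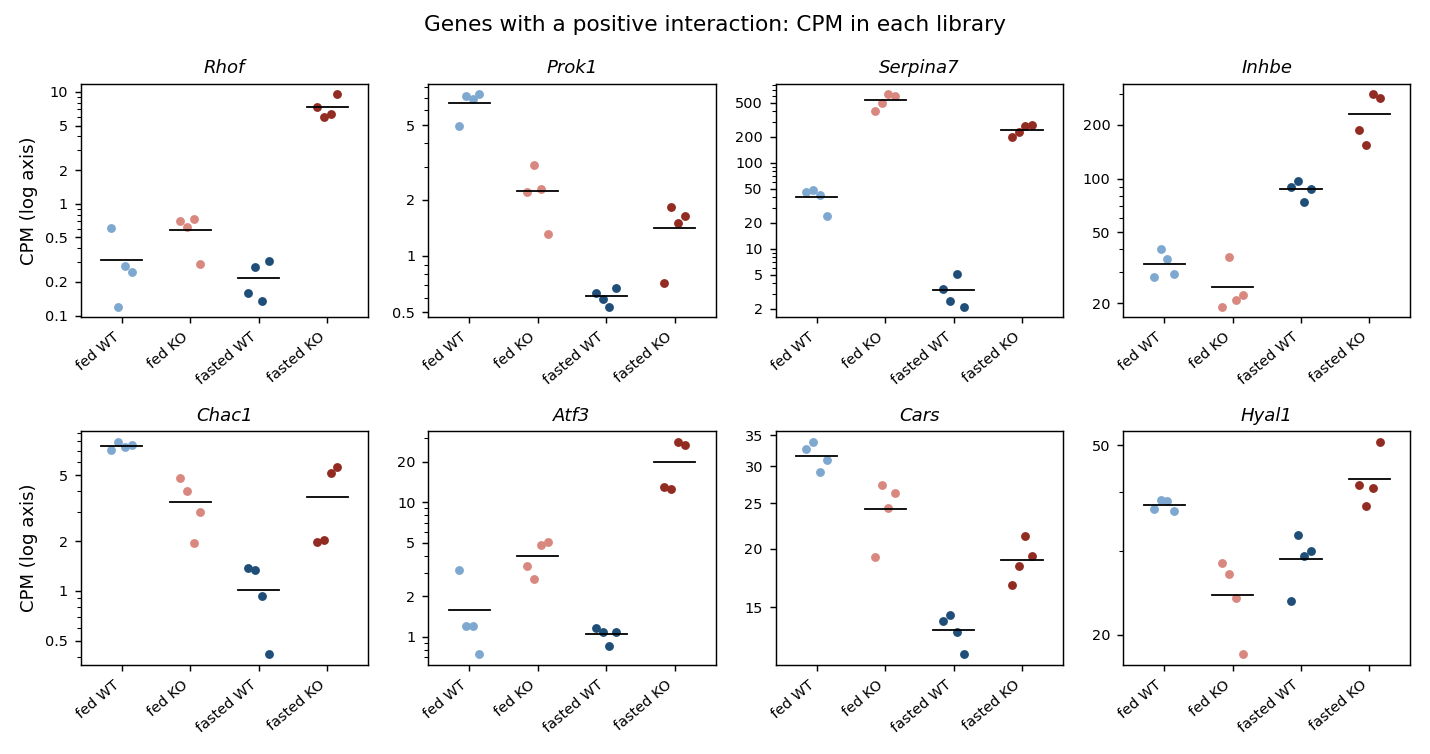
CPM of 8 genes with a positive interaction in each library on log axes, with 4 points per group and a bar at the group mean. In Chac1 and Cars the fasted WT points are lower than those of the other 3 groups, and in Rhof and Atf3 the 4 fasted KO points are the highest.

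Lipogenic genes, which make fatty acids and triglycerides in the fed hepatocyte, leaned to positive estimates. Of the 20 reported here, all tested, 18 had estimates above 0 with a median of 0.39, and of 0.56 without fasted WT 2 and 4. By edgeR 0 of them were called, with 7 at an unadjusted p under 0.05, and DESeq2 and limma voom called 1 each. The median knockout effect of these genes was -0.29 fed, with 3 called higher and 7 lower, and 0.35 fasted, with 9 called higher. Shares over all genes were 14% higher and 16.9% lower when fed, and 13.8% higher when fasted. Pnpla3, Scd1, Thrsp and Aacs had estimates of 2.27, 1.57, 1.22 and 1.17, with adjusted p of 0.322, 0.0651, 0.146 and 0.189. Fasn, the fatty acid synthase, was at 0.48 ± 0.27 (adjusted p = 0.387) and Srebf1, the lipogenic regulator, at 0.061 ± 0.28 (adjusted p = 0.944). The desaturase Scd2, described above and not on this list, was called negative.

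Fabp5, a fatty acid binding protein, fell with the knockout in fed liver. It averaged 146 ± 73.2 CPM in fed WT, 29.3 ± 7.96 in fed KO, 9.86 ± 3.35 in fasted WT and 13.6 ± 4.77 in fasted KO (SD, n = 4 each). Fed KO libraries were all below fed WT and the fasted genotypes overlapped, with an interaction of 2.78 ± 0.54 (adjusted p = 0.0289). Fabp2, the intestinal-type fatty acid binding protein, was lower in KO in both states with a smaller effect when fasted, and its interaction was 0.68 ± 0.15 (adjusted p = 0.03). Fabp2 and the aminopeptidase Anpep, called at 0.38 ± 0.097 (adjusted p = 0.049), are also listed as markers of intestinal epithelium, of which only these 2 of 10 had enough reads to be tested. Apoa5, which promotes triglyceride clearance, was 1453 ± 85.1 CPM in fed WT and 752 ± 116 in fed KO, with overlap of the fasted genotypes and an interaction of 0.72 ± 0.15 (adjusted p = 0.0217). Insig2, which restrains sterol and lipid synthesis, had 0.87 ± 0.21 (adjusted p = 0.0447), and Soat2, which esterifies cholesterol for export, 0.99 ± 0.19 (adjusted p = 0.014). Soat2 was higher in KO in both states, and reached 79.6, 78.7, 104 and 92 CPM in fasted KO against 28.4, 27.7, 24.4 and 22.9 CPM in fasted WT. The call of Anpep was lost in 14 of 16 single omissions. Without fasted WT 2 and 4 none of these 6 was called, with estimates of 2.95 (adjusted p = 0.0771), 0.71 (adjusted p = 0.0755), 0.45 (adjusted p = 0.0755), 0.70 (adjusted p = 0.0755), 0.75 (adjusted p = 0.146) and 0.97 (adjusted p = 0.0656).

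Among genes of the integrated stress response, Chac1 and Atf3 were called. Of 30 tested, 25 were called higher in fasted KO, against 13.8% of all genes, and 23 in fed KO, against 14%. The median interaction was 0.33, with 9 estimates below 0. Chac1, which degrades glutathione, stood at 7.05, 7.92, 7.42 and 7.55 CPM in fed WT against 4.77, 4.02, 1.96 and 3.01 CPM in fed KO. In fasted liver it was 1.38, 1.35, 0.938 and 0.413 CPM in WT and 1.97, 2.03, 5.14 and 5.63 CPM in KO. KO was below WT when fed and above it when fasted, with no overlap, and the change with fasting was -2.88 ± 0.40 (adjusted p = 5.1e-05) in WT and 0.10 ± 0.35 (adjusted p = 0.84) in KO. Its interaction was 2.98 ± 0.54 (adjusted p = 0.0142). Atf3, a stress-induced transcription factor, had 3.15, 1.2, 1.21 and 0.735 CPM in fed WT, then 3.34, 2.68, 4.8 and 5.05 CPM in fed KO, 1.17, 1.08, 0.848 and 1.09 CPM in fasted WT and 13.1, 12.5, 28.2 and 26.7 CPM in fasted KO. The fasted KO libraries held the 4 highest values, and the interaction was 2.92 ± 0.60 (adjusted p = 0.0309). Without fasted WT 2 and 4 the estimates were 2.81 (adjusted p = 0.0657) and 2.98 (adjusted p = 0.109), and Atf3 also lost its call in 8 of 16 single omissions. Ddit4, Ddit3, Trib3 and Slc7a1 had estimates of 2.16, 1.46, 1.22 and 1.43 and were not called. Atf4, Asns and Psat1 were at 0.30, -0.20 and 0.15.

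Activin subunits, secreted by hepatocytes, gave the 3 positive calls among 22 hepatokine genes, with Lepr as the 1 negative call. Shares over all genes were 1.07% positive and 0.633% negative. Inhbe, which encodes activin E, was 28.2, 40.4, 35.6 and 29.3 CPM in fed WT, then 19.1, 36.2, 20.8 and 22.3 CPM in fed KO, 89.4, 97.3, 73.7 and 87.6 CPM in fasted WT and 187, 154, 297 and 282 CPM in fasted KO. The fed genotypes overlapped and all fasted KO libraries were above fasted WT, an interaction of 1.84 ± 0.33 (adjusted p = 0.0172). Inhba had 1.18 ± 0.26 (adjusted p = 0.0284) with the same pattern, and Inhbc, which was lower in fed KO, 0.79 ± 0.17 (adjusted p = 0.0308). Inhbe and Inhbc lie beside each other on chromosome 10, and the predicted gene Gm47200 runs over both on the opposite strand. Gm47200 was itself called at 2.93 ± 0.61 (adjusted p = 0.0217), and with no strand setting given, reads of these genes cannot be told apart where they overlap. Of the 3 subunits, Inhbc was called without fasted WT 2 and 4, at 0.94 (adjusted p = 0.0288), against 1.94 (adjusted p = 0.0691) for Inhbe and 1.22 (adjusted p = 0.0776) for Inhba. Inhbe kept its call in all 16 single omissions.

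Enzymes that charge tRNAs gave 4 calls among 36 tested, all of them positive and for cytosolic enzymes, against 1.07% of all genes called positive. The median was 0.23 and 8 estimates were below 0. Cars, for cysteine, was 32.6, 33.8, 29.1 and 30.9 CPM in fed WT against 19.2, 27.4, 24.4 and 26.3 CPM in fed KO, and 14, 14.4, 13.3 and 11.9 CPM in fasted WT and 16.7, 18.4, 21.3 and 19.3 CPM in fasted KO. KO lay below WT when fed and above it when fasted, with no overlap. The interaction was 0.88 ± 0.15 (adjusted p = 0.00796), and 0.85 (adjusted p = 0.0348) without fasted WT 2 and 4. Iars, for isoleucine, had 0.71 ± 0.13 (adjusted p = 0.0116) and was 87.4 ± 11.6 CPM in fasted KO against 45.8 ± 3.61 in fasted WT (SD, n = 4). Mars, for methionine, had 0.53 ± 0.11 (adjusted p = 0.0228) and Yars, for tyrosine, 0.51 ± 0.13 (adjusted p = 0.0496). Without fasted WT 2 and 4 Iars, Mars and Yars were not called, at 0.67 (adjusted p = 0.0655), 0.57 (adjusted p = 0.0633) and 0.55 (adjusted p = 0.0968). Mars lies opposite the stress gene Ddit3 on chromosome 10, where reads of the overlap cannot be assigned without strand. Yars lost its call in 14 of 16 single omissions and Mars without fed KO 3, fasted WT 2 or fasted KO 3.

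The proximal promoters of the positive genes were searched for the amino acid response element, the site TGATGCAA at which ATF4 and its partners can bind, on both strands. It was present in 7 of 156 promoter windows of positive genes (4.49%), in 1 of 90 windows of negative genes (1.11%) in 90 of 13370 windows of all tested genes (0.673%) and in 0.895% of all 32851 windows. Windows run from 250 bases before to 50 after each start site in RefSeq's GRCm38.p6 table, which had entries for 117 positive and 65 negative genes. The 7 windows belong to Chac1, Atf3, Inhbe, Iars, Yars, Insig2 and 1810008I18Rik. The window of a negative gene belongs to Chchd10, where the element begins at -85 and again at -72 from the start site. The windows of Atf3, Inhbe and Insig2 lie at start sites inside the annotated gene bounds. A further Insig2 window, at the annotated start of the gene, held no such element. Of these 7 windows, 6 are shown, with the element in capitals, since they carry the letters that these called genes share. They are given whole for Chac1, chr2:119350992-119351291 on the forward strand, and Atf3, chr1:191183284-191183583 on the reverse strand, and as the 60 bases around the element for the rest.
Chac1: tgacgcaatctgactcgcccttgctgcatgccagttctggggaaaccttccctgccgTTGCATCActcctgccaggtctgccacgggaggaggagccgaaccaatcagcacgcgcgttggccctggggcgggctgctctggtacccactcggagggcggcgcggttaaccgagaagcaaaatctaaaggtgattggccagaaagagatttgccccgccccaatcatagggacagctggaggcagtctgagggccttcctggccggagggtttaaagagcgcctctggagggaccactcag
Atf3: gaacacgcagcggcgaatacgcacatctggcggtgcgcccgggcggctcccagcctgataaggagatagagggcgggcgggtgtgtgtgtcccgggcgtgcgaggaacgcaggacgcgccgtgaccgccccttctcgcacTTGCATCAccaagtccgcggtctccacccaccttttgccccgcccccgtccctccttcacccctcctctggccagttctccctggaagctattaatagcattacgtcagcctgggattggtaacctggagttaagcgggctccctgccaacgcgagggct
Inhbe: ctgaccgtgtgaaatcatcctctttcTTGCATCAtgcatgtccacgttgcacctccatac
Iars: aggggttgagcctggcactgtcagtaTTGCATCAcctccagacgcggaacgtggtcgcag
Yars: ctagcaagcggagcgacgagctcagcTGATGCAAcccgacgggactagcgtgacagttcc
Insig2: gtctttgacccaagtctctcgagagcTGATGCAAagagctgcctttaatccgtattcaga
The shorter stretches are chr10:127351996-127352055 on the reverse strand, chr13:49682111-49682170 and chr4:129189880-129189939 on the forward strand and chr1:121328169-121328228 on the reverse strand. Counted from the start site at 0, the element begins at -193 in Chac1, -110 in Atf3, -181 in Inhbe, 7 in Iars, 3 in Yars and -178 in Insig2. In Chac1, Atf3, Inhbe and Iars it reads TTGCATCA, the other strand of the same site. A match describes the letters of the window and is not a measured binding site. Searched in the same way, the cyclic AMP element TGACGTCA stood in 3.85% of positive windows and 2.85% of tested ones, the E-box CACGTG in 9.62% and 9.68%, and the FOXO element GTAAACA in 1.28% and 2.97%. The D-box, read as TTATGCAA or TTACATAA, was in 0.641% and 1.21%, the STAT5 element TTCNNNGAA in 6.41% and 6.99%, and the glucocorticoid receptor site AGAACA in 12.8% and 13.2%. The heat shock element was in 0 of 156 and in 0.494%, and the PPAR direct repeat, added after the data were seen, in 1.92% and 0.381%. In negative windows these shares were 0% for the cyclic AMP element, 7.78% for the E-box, 4.44% for FOXO, 1.11% for the D-box, 2.22% for STAT5, 12.2% for the glucocorticoid site and 0% for the last pair.

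Factors that assemble ribosomes in the nucleolus, a list made after the values were seen, had 8 calls among 59 tested. All 8 were positive, against 1.07% of all genes. The median interaction of the list was 0.31, and 47 members were called higher in fasted KO against 18 in fed KO. Shares over all genes were 13.8% and 14%. Nop2, a methyltransferase of ribosomal RNA, was 12.9, 17.8, 14.4 and 15 CPM in fed WT, then 19.7, 19.4, 23.2 and 18.8 CPM in fed KO, 14, 15, 15.1 and 17.3 CPM in fasted WT and 30.01, 34.8, 31.9 and 40.4 CPM in fasted KO. KO lay above WT in both states, with a knockout effect of 0.43 fed and 1.16 fasted and an interaction of 0.73 ± 0.15 (adjusted p = 0.0239). Bysl had 0.58 ± 0.14 (adjusted p = 0.0373), Nol8 0.74 ± 0.16 (adjusted p = 0.0309), Urb1 0.81 ± 0.19 (adjusted p = 0.0397) and Twistnb, a subunit of RNA polymerase I, 0.82 ± 0.18 (adjusted p = 0.0322). Nop16, lower in fed KO, and Kri1 and Heatr1, higher in fasted KO, had 0.42, 0.56 and 0.89. Of the 8, Nop16 alone was called without fasted WT 2 and 4, at 0.50 (adjusted p = 0.0492), and single omissions ended each of the 8 calls in 3 to 14 of 16 cases. Of 76 tested genes of the cytosolic ribosome itself, 0 were called by edgeR, DESeq2 or limma voom and 8 had an unadjusted p under 0.05, with 66 estimates below 0 and a median of -0.12. The mitochondrial ribosome had 1 call among 76, Mrpl19, at 0.68 ± 0.16 (adjusted p = 0.0413), lost in 10 of 16 single omissions and at 0.63 (adjusted p = 0.125) without fasted WT 2 and 4. In that fit Mrpl38 was called instead, at 0.51 (adjusted p = 0.0423).

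Serpina7, thyroxine-binding globulin of plasma, was higher in KO in both states and by more when fasted. It stood at 45.6, 48, 42.1 and 23.8 CPM in fed WT, then 401, 489, 624 and 601 CPM in fed KO, 3.45, 2.48, 5.09 and 2.12 CPM in fasted WT and 198, 225, 266 and 276 CPM in fasted KO. It fell with fasting in both genotypes, with a log2 change of -3.59 ± 0.29 (adjusted p = 4.57e-07) in WT and -1.13 ± 0.24 (adjusted p = 0.00176) in KO, and the interaction was 2.45 ± 0.37 (adjusted p = 0.00813), or 2.08 (adjusted p = 0.0367) without fasted WT 2 and 4. Leap2, a liver-made blocker of the ghrelin receptor, fell with fasting in WT from 32.2 ± 5.66 to 15.4 ± 1.28 CPM and was 56.4 ± 11.5 CPM in fed KO and 72.5 ± 25.2 CPM in fasted KO (SD, n = 4 each). Its interaction was 1.43 ± 0.30 (adjusted p = 0.0322). Sgk1, a kinase induced by glucocorticoids, was highest in fasted KO at 274, 250.1, 318 and 301 CPM, against 35.5, 39.2, 50.6 and 25.9 CPM in fasted WT, and had 1.68 ± 0.37 (adjusted p = 0.0407). It was the only call among 14 glucocorticoid targets, whose median was 0.59. Adcy1, an adenylate cyclase, had 2.06 ± 0.42 (adjusted p = 0.0244) and was called in fasted KO alone. Leap2, Sgk1 and Adcy1 were not called without fasted WT 2 and 4, at 1.36 (adjusted p = 0.115), 1.5 (adjusted p = 0.122) and 2.19 (adjusted p = 0.0776), and the call of Leap2 was lost in 10, of Sgk1 in 12 and of Adcy1 in 3 of 16 single omissions.

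In some positive genes the knockout effect was called in both states with opposite signs. Hyal1, a lysosomal hyaluronidase, was 36.7, 38.5, 38.3 and 36.4 CPM in fed WT, then 28.3, 26.8, 23.9 and 18.2 CPM in fed KO, 23.6, 32.4, 29.3 and 29.97 CPM in fasted WT and 41.4, 37.3, 40.8 and 50.8 CPM in fasted KO. KO was below WT when fed and above it when fasted, with no overlap, and the interaction was 1.18 ± 0.17 (adjusted p = 0.00291), or 1.31 (adjusted p = 0.0194) without fasted WT 2 and 4. Adgrv1, an adhesion receptor, crossed likewise, from 2.74, 3.84, 3.76 and 3.53 CPM in fed WT to 1.71, 1.88, 1.96 and 2.09 CPM in fed KO and from 1.7, 0.969, 1.29 and 1.34 CPM in fasted WT to 3.23, 2.11, 2.34 and 2.68 CPM in fasted KO. Its interaction was 1.83 ± 0.26 (adjusted p = 0.00253), or 1.66 (adjusted p = 0.0228) without fasted WT 2 and 4. Hyal1 overlaps Hyal3 and Naa80 on the same strand. Reads that fit more than 1 gene stand in a summary line apart from the gene counts, so its level is uncertain.

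In the remaining positive genes the knockout effect was mostly a fall in fed liver. Dpy19l3, a mannosyltransferase, was 16.8 ± 3.02 CPM in fed WT and 3.03 ± 0.363 in fed KO, and 3.18 ± 0.801 and 1.84 ± 0.308 CPM in the fasted groups (SD, n = 4 each), with an interaction of 1.68 ± 0.25 (adjusted p = 0.00306). Gabbr2, a GABA receptor subunit, had 1 ± 0.17 (adjusted p = 0.00813), and Ctcflos, annotated as antisense to Ctcfl, 1.48 ± 0.21 (adjusted p = 0.00263). Lifr, the receptor of leukaemia inhibitory factor, fell with the knockout in both states, with an effect of -1.4 ± 0.10 (adjusted p = 2.06e-08) fed and -0.64 ± 0.10 (adjusted p = 0.000149) fasted and an interaction of 0.77 ± 0.14 (adjusted p = 0.0134). C4a, a complement gene close in sequence to C4b, was lower in KO in both states, at 58.7 ± 31.9 and 4.48 ± 0.651 CPM fed, and had 2.32 ± 0.52 (adjusted p = 0.0431). St5 differed, being higher in fasted KO at 63.4, 66.2, 92.4 and 80.7 CPM than in fasted WT at 23.9, 32.1, 37.2 and 36.4 CPM with overlapping fed genotypes, and had 0.98 ± 0.18 (adjusted p = 0.0134). Dpy19l3, Gabbr2, Ctcflos, Lifr and St5 were also called without fasted WT 2 and 4, and C4a was not, at 2.47 (adjusted p = 0.113). Amacr, a racemase of branched fatty acids and bile acids, had 0.48 ± 0.10 (adjusted p = 0.0222) and was lower in fed KO, with overlapping fasted genotypes. It was not called without fasted WT 2 and 4, at 0.47 (adjusted p = 0.0776).

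Sex-biased liver genes follow the pattern of growth hormone release. All 16 female-biased genes that were tested and are reported here had estimates below 0. The median of these genes was -1.16, and -1.12 without fasted WT 2 and 4. Called were 2 of them, Acot3 and Atp6v0d2, against 0.633% of all genes called negative. The median knockout effect of the female-biased genes was 2.25 fed, with 13 called higher, and 1.02 fasted, with 8 called higher. Shares over all genes were 14% fed and 13.8% fasted. Hao2 and Cyp2a4 had -5.05 ± 3.87 (adjusted p = 0.564) and -2.34 ± 2.09 (adjusted p = 0.631). Of 15 male-biased genes, all lower in KO in both states, 12 estimates lay above 0 with a median of 0.44, and 0 were called by edgeR, DESeq2 or limma voom, with 2 at an unadjusted p under 0.05. Igf1, the growth hormone target made by liver, was lower in KO in both states, with an effect of -0.52 ± 0.10 (adjusted p = 0.00107) fed and -0.63 ± 0.10 (adjusted p = 0.000207) fasted, and its interaction of -0.11 ± 0.15 (adjusted p = 0.779) was not called.

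**Figure D5:**
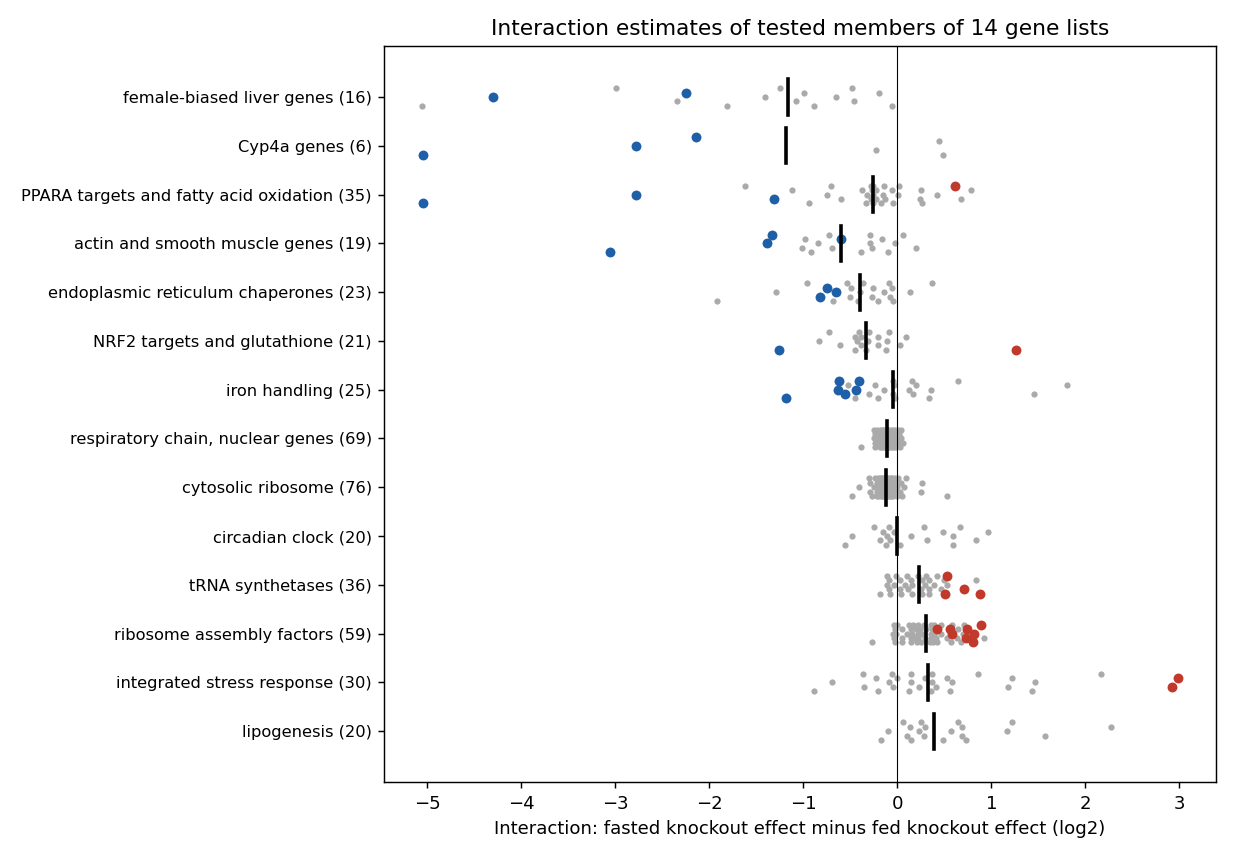
Interaction estimate (log2, x axis) of tested members of 14 gene lists, with the number tested in parentheses. Large blue or red points are called genes, small grey points are not called, and the black bar is the median of the list, which lies at -1.16 for female-biased genes and at 0.39 for lipogenesis.

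In the plot of list members, the respiratory chain, cytosolic ribosome and clock lists, all without calls, have medians between those of the lipogenic and female-biased genes. Among 69 nuclear genes of the respiratory chain, 61 estimates were below 0 with a median of -0.11, and 0 were called by edgeR, DESeq2 or limma voom, with 8 at an unadjusted p under 0.05. Among 20 clock genes, whose products keep the daily rhythm, 0 were called by these tools or had an unadjusted p under 0.05, with a median of -0.0021. Cholesterol synthesis had a median of 0.19 and 0 calls by edgeR among 25 genes, with 10 at an unadjusted p under 0.05, 3 called by DESeq2 and 0 by limma voom. The acute phase list, plasma proteins raised by inflammation, had a median of 0.061 and 0 calls by edgeR among 25, with 7 at an unadjusted p under 0.05 and 1 called by each of the other tools. Interferon-stimulated genes had 0 calls by all 3 tools among 29, with 1 at an unadjusted p under 0.05 and a median of 0.048. The same held for extracellular matrix among 32 genes, with 4 at an unadjusted p under 0.05 and a median of -0.16. Proliferation genes had a median of -0.19 and 0 calls by edgeR and limma voom among 27, with 3 at an unadjusted p under 0.05 and 1 called by DESeq2. Genes of the zinc finger Zfp series, listed after their values were seen, had 7 calls among 308 tested, all positive, against 1.07% of all genes, with a median of 0.16. Their estimates lay above 0 in 222 of 308 cases, and without fasted WT 2 and 4 the calls were 2 and the median 0.11.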

How the data were processed

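RNA-seq counts were read for 16 mouse livers, 4 in each of 4 groups set by genotype and feeding state. Per the labels' protocols, RNA was extracted with Trizol and 500 ng went into stranded poly(A) libraries. Per the submitters' processing notes, the build was GRCm38 and the tools were HTSeq 0.9.1, STAR 2.5.3a and cutadapt 1.8. Neither the strand option of counting nor the gene models are given in the sources used here. The authors deposited whole-number counts per gene, with 5 summary lines that were kept out of library sizes and tests.

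The interaction was fitted with edgeR 4.0.16 (R 4.3.3): filterByExpr, TMM, robust quasi-likelihood F-test, 1 mean per group, Benjamini-Hochberg adjustment over 13905 genes, 12 residual degrees of freedom. Standard errors are the size of the estimate over the square root of F. Replicates of a group differed by more than sampling noise in all 24 pairs, with a chi-square of 6.79 to 91.7 per gene. Alternatives were library scaling, count filters, DESeq2 1.42.0, limma 3.58.1 voom, a replicate block and leaving out libraries. Named genes were the 12 largest estimates in each direction among genes called with and without fasted WT 2 and 4 at an average log2 CPM of at least 1, up to 3 called genes per list by smallest p, the 5 largest in each direction called with 16 libraries alone, and Slc25a47, Rhof, Prok1 and Igf1. Predicted genes, clone names, pseudogenes and acinar genes were left out of the choices by size. A further 25 called genes were named after their values were seen. The members, lists and rules were chosen with earlier results of these data known. Positions are from GENCODE for GRCm38, whose release vM21 matched 53619 of 53714 gene IDs (99.8%). Some genes are not reported here and were left out of the lists and named genes, not of the fits. The fits were tested on simulated counts.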

Additional observations from a re-analysis of the deposited data

Results flagged for a closer look

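Of 240 groups of 4 libraries tested for a value apart from the rest, 12 had one, and chance alone flags about 1 in 20 groups. In fasted WT, Cyp4a14 was 9150 CPM in library 1 against 11600 to 11900 in the others, and Psmd11 was 127 CPM in library 2 against 114 to 115. In fasted KO, library 1 stood apart for Cyp4a10 (7540 CPM against 6770 to 6900), Psmd11 (97.8 against 107 to 108) and the summed acinar transcripts (92.5 against 5.68 to 6.1). Slc25a39 was 638 CPM in fasted KO 4 against 549 to 559, and Dpy19l3 was 2.3 CPM in fasted KO 3 against 1.66 to 1.72. In fed KO, library 1 was high for Acta2 (12.3 CPM against 6.5 to 7.1) and Fabp5 (41.2 against 24.9 to 26.1), and library 4 low for Mrpl19 (9.07 against 11.6 to 12.2). In fed WT, Atp6v0d2 was 2.94 CPM in library 4 against 1.93 to 1.96, and Apoa5 was 1330 CPM in library 1 against 1480 to 1500.

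The knockout effect was called in both feeding states with opposite signs for 13 named genes, each of them also called for the interaction by edgeR. KO was above WT when fed and below it when fasted for Dmbt1 (interaction -7.73), Actg2 (-3.06), Fmo2 (-1.53), Tfrc (-1.18), Mat1a (-0.936), Slc48a1 (-0.631), Ftl1 (-0.623) and Slc6a6 (-0.552). It was below WT when fed and above it when fasted for Chac1 (2.98), Prok1 (2.77), Adgrv1 (1.83), Hyal1 (1.18) and Cars (0.877). The causes of these patterns were not tested.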

How the results depend on the processing

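All 237 called genes kept their sign under every alternative that tested them, 228 of them under the filter of 1 CPM in 4 libraries. The count moved by more than 1.5 times with DESeq2's Wald test (530 genes, 285 positive and 245 negative, all 237 among them), with limma voom and sample quality weights (416, 275 positive and 141 negative) and at an adjusted p under 0.01 (23, 16 positive and 7 negative). Without fasted WT 2 and 4 it was 72 (39 positive and 33 negative). Scaled by library totals alone, positive calls fell to 88 of 189. The cause of these shifts was not tested, except that the stricter threshold reduces calls by construction. Counts stayed within 1.5 times with DESeq2 size factors (212), without a filter (251), with the stricter filter (226) and without robust estimation (238). Leaving out 1 library at a time gave 87 to 523 genes, 51 to 352 positive and 34 to 171 negative. The labels give no shared source for a replicate number, and for that reason the plan did not treat the numbers as pairs. Correlations of same-numbered libraries ran from -0.174 to 0.251, with 3 of 24 over 0.1, and 8 of 16 libraries correlated best with their own number, a hint from the data and not from the design. With the number as a replicate block, 218 genes were called, 136 positive and 82 negative, 185 of them among the 237. Depth limits low genes: 1 CPM, after scaling, is 18.6 to 26.1 reads, and Actg2, Olfm4 and Rhof rest on fewer in most groups.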
